A study of Mus musculus with 10 samples.

Results

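Oxidative phosphorylation is carried out by 5 protein complexes of the inner mitochondrial membrane, and the genes that encode them are described here in knee cartilage of mice with and without the microRNA gene Mir324. Members were chosen by symbol among protein-coding genes, as the mitochondrial Nd, Co, Atp and Cytb genes and the nuclear Nduf, Sdha to Sdhd, Uqcr, Cox4 to Cox8 and Atp5 genes. They came to 107 of the 35705 genes of the table, of which 13 were encoded by the mitochondrial genome and 94 by the nucleus. The nuclear members held 84 subunits, 8 Ndufaf assembly factors, the coupling factor gene Atp5s and a second entry named Atp5o that reads through into neighbouring genes. A further 13 genes with matching symbols were not protein coding and were left out.

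RNA of 10 mice was sequenced, 5 labelled wild-type control and 5 labelled miR-324-null, each giving 1 library from its medial knee cartilage. The mice were untreated, and the labels used here state neither their age, sex, strain and litter nor how the null allele was made. Nothing else distinguished the groups in the labels. The question was how the loss of this microRNA is reflected in the transcripts of cartilage.

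Complexes I to IV pass electrons from metabolic fuels to oxygen and, except for complex II, pump protons across the inner membrane. Complex V, the ATP synthase, lets the protons return and makes ATP. Complexes I, III, IV and V combine subunits made inside the mitochondrion with subunits made in the cytosol and imported, while all subunits of complex II are nuclear. Chondrocytes live in tissue with few blood vessels and are known for relying strongly on glycolysis.

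The deleted gene encodes 2 mature strands, printed here because their seeds (bases 2 to 8, in capitals) define the sites that were searched in the members. Both lie on the plus strand of chromosome 11, at chr11:70012060-70012082 for the 5p strand and chr11:70012095-70012114 for the 3p strand, and the sequences are from RefSeq (GRCm38.p6).
mmu-miR-324-5p: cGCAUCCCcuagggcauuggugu
mmu-miR-324-3p: cCACUGCCccaggugcugcu
For each gene the longest annotated 3′ untranslated region was searched. Those of the members were short, with a median of 280.5 bases against 1321 for all 12615 genes searched. The 5p site GGGATGC was found in 2 of 90 nuclear members (2.22%) and in 9.39% of all genes searched. The 3p site GGCAGTG was found in 6 of 90 (6.67%) and in 17.4% of all. Atp5g1, which encodes the c subunit that forms the rotor ring of ATP synthase, was the only member with a site for both strands, and its regions are shown with the seed match in capitals.
Atp5g1, 5p site: cagggagatcaGGGATGCatgggcttaag
Atp5g1, 3p site: atcatgaggttGGCAGTGtggctcagtgg
Atp5g1 averaged nearly the same level in both genotypes, 190.2 ± 25.5 TPM (an abundance that allows for transcript length and is scaled to a fixed library total) in the wild-type and 189.7 ± 25.8 in null mice (SD, n = 5 each), a log2 difference of -0.00 ± 0.12 (SE). Among the other genes with a site, Ndufb8 had one for the 5p strand and a log2 difference of -0.05. Those with a site for the 3p strand were Ndufab1 at -0.21, Ndufb2 at -0.16, Ndufaf8 at -0.14, Ndufa7 at -0.09 and Ndufaf7 at 0.04. None of these passed the adjusted threshold, and the members with a 5p site and those with a 3p site had median differences of -0.03 and -0.11. The most abundant transcripts of Atp5g1, Ndufb8, Ndufab1 and Ndufb2 had only 596, 680, 397 and 455 bases in all. Their first sites lay at bases 2999, 721, 2301 and 861 of the region searched. Whether the levels of these genes are those of transcripts with a site was not tested. A seed match is a description of the sequence and does not show that the strand acts on it.

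The libraries held much RNA of blood-forming cells beside that of cartilage. Haemoglobin genes took 15.5% ± 3.93 of the TPM in the wild-type and 20.6% ± 4.21 in null mice, and 8 of 8 erythroid markers tested averaged higher in null mice. Of 15 chondrocyte markers, 12 passed the level filter, while Matn1, Matn3 and Col9a1 were under it, and their summed level ran from 2542 to 7555 TPM in the wild-type and from 2220 to 3673 TPM in the null mice. Of those 12, 11 averaged lower in null mice, with a median log2 difference of -0.66. The summed osteoblast and osteocyte markers ran from 3821 to 8435 and from 1998 to 4133 TPM, with 10 of 10 lower on average in null mice. Markers of osteoclasts, adipocytes and B cells averaged lower in null mice in 6 of 6, 6 of 6 and 8 of 8 tested. The neutrophil markers summed to between 58682 and 115929 TPM in wild-type and between 58207 and 118005 TPM in null libraries, with 8 of 9 lower on average in null mice. Of 7 fibroblast and synovium markers tested, 4 averaged lower and 3 higher. In such mixed tissue, fewer cells of a type and less RNA per cell cannot be told apart, and the part of these shifts in the differences given here was not tested.

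The 13 mitochondrial messages were the most abundant members. Averaged over 10 mice they ran from 1059 TPM for mt-Nd5 to 7712 TPM for mt-Atp6, with a median of 2736 TPM. The 81 nuclear subunits that passed the filter of a mean of at least 1 TPM had a median of 164 TPM and ran from Cox7a1 at 2.22 to Atp5b, the catalytic beta subunit of ATP synthase, at 759 TPM. TPM allows for transcript length, yet mt-Atp8 and mt-Atp6, which come from 1 message, were at 1682 and 7712 TPM. Levels of different genes can thus be set side by side only roughly. Median levels of nuclear subunits were 105 TPM for complex I, 101 for complex II, 209 for complex III, 278 for complex IV and 308 for complex V. The 4 members not tested were Cox7b2, at 0 in all mice, Cox8b, Cox8c and the second Atp5o entry, and no member reached the filter in 1 genotype only.

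All 13 mitochondrial messages averaged lower in null mice, with log2 differences between -0.41 and -0.21 and a median of -0.28, beside a median of -0.05 over all 13841 genes tested. These messages come from the same genome, and null replicate 1 was the lowest mouse in each. The 13 are thus not independent measurements, and their counts are set beside the shares of all genes only as a description. No gene passed an adjusted p of 0.05 (limma), a background of 0%, and the smallest adjusted p of a mitochondrial message was 0.291. At an unadjusted p under 0.05, 9 of the 13 were lower in null mice and none higher, where 7.3% of all genes were lower, 4.28% higher and 11.6% either. In 4 of them, namely mt-Cytb, mt-Co1, mt-Nd4 and mt-Nd6, every null mouse lay below every wild-type mouse, which held in this direction for 1.06% of all genes and in either for 1.94%. No member was higher in null mice without overlap, where 0.881% of all genes were. The count of 9 became 5 without wild-type replicate 4, without null replicate 1 or without null replicate 2. The share of all genes that were lower was then 5.50%, 4.54% and 8.20%. All 13 averaged lower under each scaling tried, while the 9 became 2 after scaling by median ratios, 0 after quantile normalization and 2 after rescaling without haemoglobin (where 6.42%, 6.71% and 4.16% of all genes were lower), and the 4 became 0 under each of these.

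mt-Cytb (chrM:14145-15288) encodes cytochrome b, the subunit of complex III made inside the mitochondrion. It measured 4164, 3581, 3499, 3979 and 3477 TPM in the wild-type mice 1 to 5 and 2382, 2779.9, 3119, 3242 and 2973 TPM in the null mice 1 to 5. The highest null mouse was thus below the lowest wild-type mouse. The means of 3739.8 ± 312 and 2899 ± 337 TPM (SD, n = 5 each) gave a log2 difference of -0.37 ± 0.10 (SE), with an adjusted p of 0.291 in limma. The exact permutation p was 0.00794 (two-sided), the smallest that 5 against 5 mice can give. Any gene with separate genotypes gets this p, which is unadjusted. Here and below it therefore adds nothing to the separation itself.

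The 3 messages of complex IV encode the subunits that hold its copper and haem centres or lie beside them in the catalytic core. mt-Co1 (chrM:5328-6872) measured 8402, 7825, 8113, 8369 and 8195 TPM in the wild-type mice and 6011, 6736, 7146, 7649 and 6878 TPM in the null mice. The groups did not overlap, with a log2 difference of -0.25 ± 0.08 (limma adjusted p 0.329, exact permutation p 0.00794). mt-Co3 measured 7635 ± 762 and 6328 ± 809.7 TPM, a log2 difference of -0.27 ± 0.11. mt-Co2 spread most among wild-type mice, at 11769.6, 8591, 7106, 7875 and 6791 TPM, and null mice at 5656, 6550.2, 7860.0, 6317 and 7646 TPM overlapped with them. Its log2 difference was -0.29 ± 0.15 (limma adjusted p 0.502), and -0.16 without wild-type replicate 1.

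Complex I has 7 mitochondrial subunits, which form much of its proton-pumping membrane arm. mt-Nd4 (chrM:10167-11544) measured 3266, 2898, 2886, 3054 and 2869 TPM in the wild-type and 1993, 2404, 2744, 2749.9 and 2497 TPM in the null mice. mt-Nd6, the only member on the minus strand of the mitochondrial genome (chrM:13552-14070), measured 2097, 1857, 1631, 1644 and 1774 TPM in the wild-type and 1287, 1507, 1575, 1587 and 1336 TPM in the null mice. In both, the genotypes were separate, with log2 differences of -0.28 ± 0.10 for mt-Nd4 and -0.30 ± 0.10 for mt-Nd6 (limma adjusted p 0.342 and 0.319). Of the other subunits, mt-Nd3 was at -0.41, mt-Nd5 at -0.27, mt-Nd2 and mt-Nd1 at -0.24 and mt-Nd4l at -0.21 on the log2 scale, and their groups overlapped. Null replicate 1 was the lowest mouse of all 10 in every one of the 7. mt-Nd5 and mt-Nd6 share 14 bases on opposite strands, and whether the counting used the strand is not given in the sources used here.

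The mitochondrial subunits of ATP synthase, subunit a (mt-Atp6) and the small subunit 8 (mt-Atp8), come from 1 message with overlapping reading frames. The shared 43 bases, chrM:7927-7969 on the plus strand, are shown because reads inside them belong to both genes, with the start codon of mt-Atp6 and the stop codon of mt-Atp8 in capitals (GRCm38, GENCODE M21 transcripts).
mt-Atp8 and mt-Atp6 overlap: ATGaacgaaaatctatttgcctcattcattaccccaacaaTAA
The shared 7 bases of mt-Nd4l and mt-Nd4, a second such pair, are marked in the same way.
mt-Nd4l and mt-Nd4 overlap: ATGcTAA
mt-Atp6 measured 11390.0, 9608, 7722, 8941 and 6218 TPM in the wild-type and 4667, 7086, 7931, 6487 and 7065 TPM in the null mice, a wide spread in both genotypes. Its log2 difference was -0.39 ± 0.18 (limma adjusted p 0.427). mt-Atp8 averaged 1848 ± 199.9 and 1517 ± 248 TPM, a log2 difference of -0.29 ± 0.13. In both, all 5 null mice lay below the wild-type mean, but the groups overlapped. The 2 members of a pair cannot be told apart where reads fall within the shared bases.

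**Figure D1:**
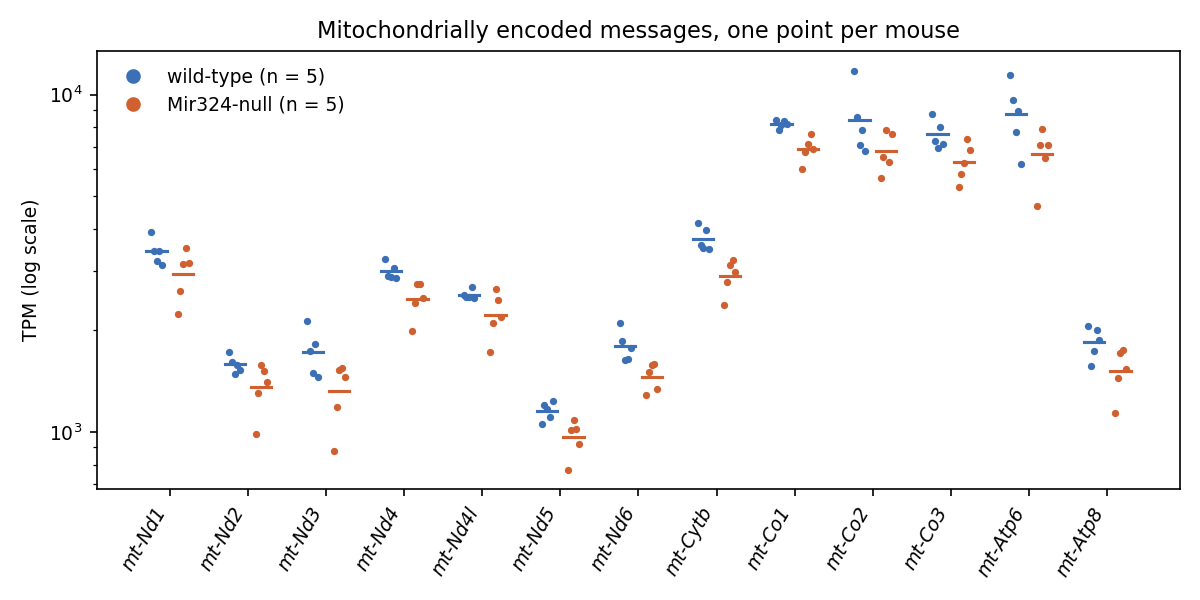
TPM (log scale) of the 13 mitochondrial messages, with a point for each mouse and a bar at the mean of each genotype (n = 5 each). The null mean lies below the wild-type mean for all 13, and the genotypes are separate for mt-Nd4, mt-Nd6, mt-Cytb and mt-Co1.

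Relative to one another the 13 messages kept similar shares. mt-Cytb made up 6.96% ± 0.327 of their sum in the wild-type and 6.62% ± 0.194 in null mice, and mt-Atp6 made up 16.2% ± 2.07 and 15.1% ± 1.52. In all 13 the range of shares in null mice overlapped with that in wild-type mice. These shares sum to a fixed total and are independent of how libraries are scaled to one another by a single factor.

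As a share of the library, the mitochondrial messages held 6.33%, 5.37%, 4.95%, 5.46% and 4.81% of the TPM in the wild-type mice 1 to 5 and 3.51%, 4.25%, 4.84%, 4.72% and 4.59% in null mice 1 to 5. Wild-type replicate 1 was the highest, null replicate 1 the lowest, and the groups overlapped only in that null replicate 3 lay above wild-type replicate 5. The 84 nuclear subunits held 1.85%, 1.57%, 1.61%, 1.66% and 1.58% in the wild-type and 1.46%, 1.57%, 1.58%, 1.49% and 1.5005% in null mice, or 1.65% ± 0.116 and 1.52% ± 0.0522, and these groups overlapped too. The ratio of mitochondrial to nuclear TPM was 3.42, 3.42, 3.08, 3.29 and 3.04 in the wild-type and 2.41, 2.71, 3.06, 3.17 and 3.06 in null mice. It averaged 3.25 ± 0.181 and 2.88 ± 0.317, a difference of -0.368 that became -0.249 without null replicate 1. These sums run over chosen members and carry no p-value.

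**Figure D2:**
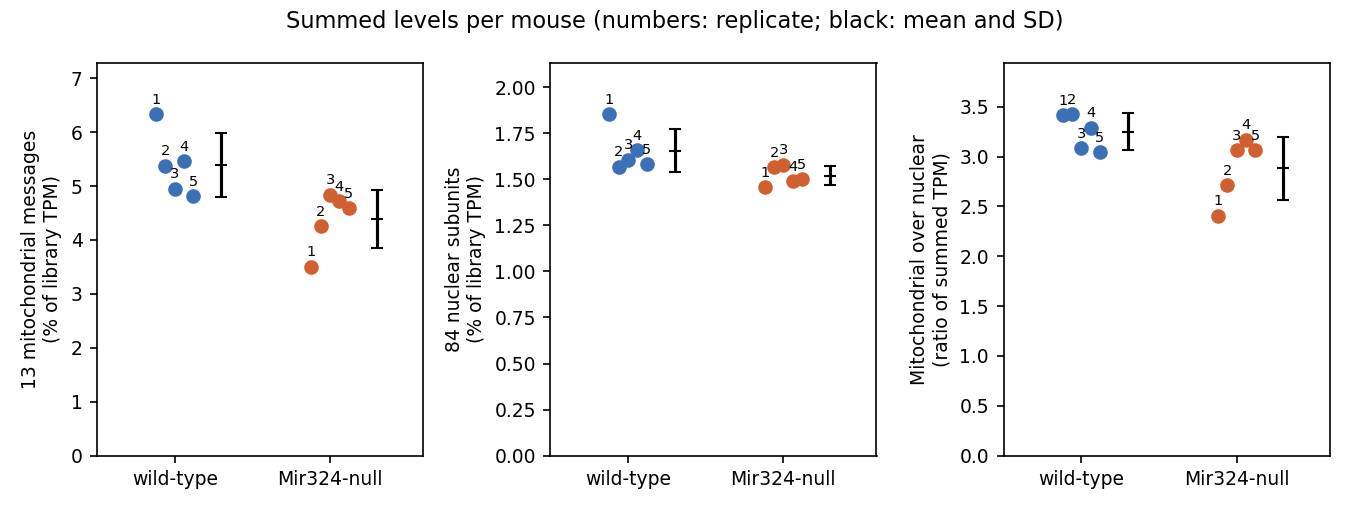
Percent of library TPM held by the 13 mitochondrial messages (left) and the 84 nuclear subunits (middle), and the ratio of the former to the latter (right), with a point per mouse labelled by replicate number and black bars for mean and SD (n = 5 per genotype). Genotypes overlap in all 3 panels, and null replicates 1 and 2 have the lowest ratios, 2.41 and 2.71.

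With haemoglobin genes left out of the total, the mitochondrial messages held 6.38% ± 0.628 of the rest in the wild-type and 5.55% ± 0.872 in null mice. On the same base the nuclear subunits held 1.96% ± 0.121 and 1.92% ± 0.106. By complex, and as a share of the whole library, the genotypes were separate in the summed mitochondrial messages of complexes I, III and IV and in the summed nuclear subunits of complexes I and IV. With haemoglobin left out of the total, none of these sums was separate. Complex V had the lowest ratio of mitochondrial to nuclear TPM, 1.99 ± 0.301 in the wild-type and 1.63 ± 0.244 in null mice, and complex IV the highest, 5.14 ± 0.234 and 4.71 ± 0.428. The groups overlapped in this ratio for each of the 4 complexes that have both kinds of subunit.

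Of 81 nuclear subunits tested, 75 averaged lower in null mice and 6 higher, beside 60% lower among all genes tested. Their median log2 difference was -0.12, with a range from -0.70 to 0.36. None passed the adjusted threshold in limma, with 0.308 as the smallest adjusted p. At an unadjusted p under 0.05, 16 were lower (19.8%, beside 7.3% of all genes) and 1 higher (1.23%, beside 4.28%), and in 6 the genotypes did not overlap, all lower in null mice, beside 1.06% of all genes. The 16 became 9, 8, 7 and 10 without wild-type replicates 1 and 4 and null replicates 1 and 4. Of all genes, 4.46%, 5.50%, 4.54% and 5.00% were then lower. The 6 became 11 without wild-type replicate 2, 3 or 5, where 2.07%, 2.74% and 1.80% of all genes were lower without overlap. With 1 mouse fewer, separation is easier to reach. After rescaling without haemoglobin the lower averages numbered 52 of 81 with a median of -0.03, the 16 became 5 (6.17%, beside 4.16% of all genes in that fit) and the 6 became 0. Scaling by median ratios also left 5 and 0, where 6.42% of all genes were lower, so that the share of nuclear subunits was near the background. Quantile normalization left 12 (14.8%, beside 6.71%) and 2. Among 2163 other protein-coding genes at 50 TPM or more, 54.4% averaged lower and 7.81% were lower at an unadjusted p under 0.05.

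**Figure D3:**
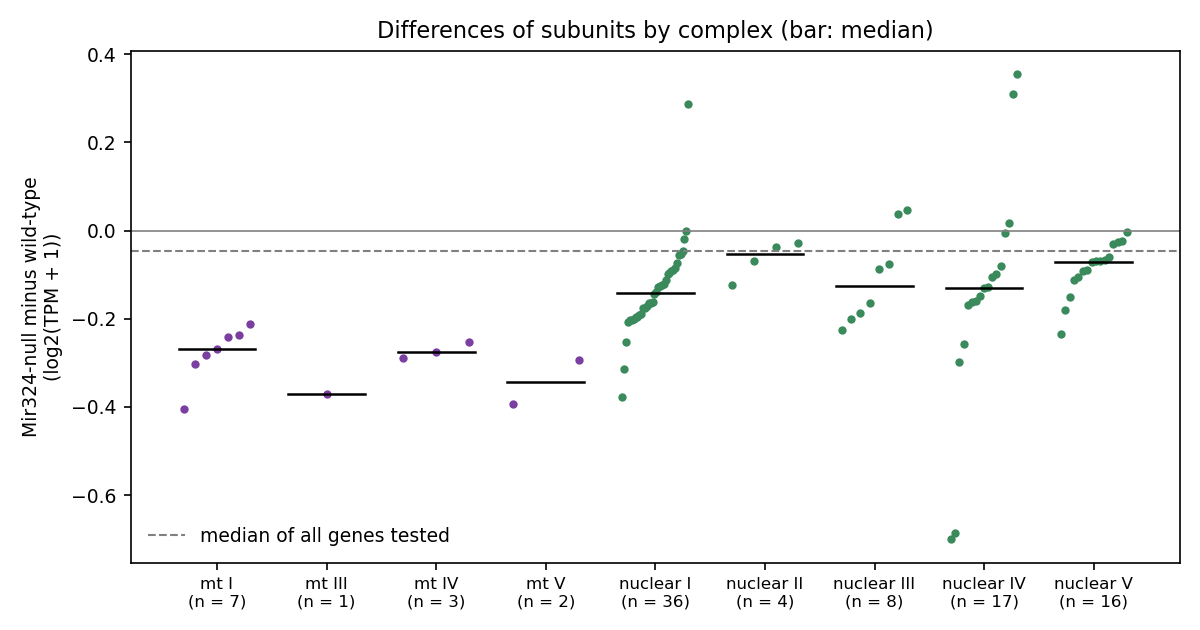
Log2 difference (null minus wild-type, log2(TPM + 1)) of each subunit tested, by complex and by genome of origin, with a bar at the median of each group and a dashed line at -0.05, the median of all genes tested. All 13 mitochondrial points lie below the line, as do the medians of the nuclear groups; after rescaling without haemoglobin the medians of nuclear complexes II and V turn positive.

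Complex I takes electrons from NADH. All 7 nuclear core subunits, which carry its flavin and iron-sulphur clusters, averaged lower in null mice with a median of -0.13, though none at an unadjusted p under 0.05. Of 29 accessory subunits, 28 averaged lower and 8 (27.6%, beside 7.3% of all genes) did so at an unadjusted p under 0.05, with a median of -0.16. The 8 became 2 with median ratios, 7 with quantile normalization and 2 after rescaling without haemoglobin. Of all genes, 6.42%, 6.71% and 4.16% were then lower. After rescaling without haemoglobin, 4 of 7 core and 24 of 29 accessory subunits averaged lower. Ndufs4, an accessory subunit that helps to hold the NADH-oxidising module in place, measured 99.4, 93.5, 91.2, 95.3 and 88.3 TPM in the wild-type and 78.5, 81.3, 74.9, 85.7 and 87.6 TPM in the null mice. Ndufc2, in the membrane arm, averaged 129 ± 4.27 and 114 ± 6.64 TPM. In both genes the genotypes were separate, with log2 differences of -0.20 ± 0.07 and -0.18 ± 0.07 (limma adjusted p 0.358 and 0.38).

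Ndufb4 had the largest log2 difference below 0 among the nuclear subunits of complex I, -0.38 ± 0.11 (limma adjusted p 0.308). It measured 64.6, 51.0, 49.9, 55.4 and 43.6 TPM in the wild-type and 41.5, 39.3, 35.6, 45.5 and 39.5 TPM in the null mice, so that only null replicate 4 lay above a wild-type mouse. Ndufa1 was at -0.31 ± 0.09, from 151 ± 16.1 to 121 ± 9.81 TPM. Ndufa6, Ndufa13, Ndufb5 and Ndufb11 were the others at an unadjusted p under 0.05, with log2 differences from -0.20 to -0.18, of which Ndufa13, Ndufb5 and Ndufb11 overlap other genes and are uncertain for that reason. The most abundant nuclear subunits, Ndufa3, Ndufa6 and Ndufb7, were at -0.10, -0.19 and -0.10. Ndufa10 was the exception, at 90.6, 74.5, 101, 79.8 and 86.5 TPM in the wild-type and 126, 102, 128, 93.9 and 83.4 TPM in the null mice, a log2 difference of 0.29 ± 0.13 (limma adjusted p 0.434) with overlapping groups.

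Of the 8 Ndufaf assembly factors, which build complex I without being part of it, 5 averaged lower and 3 higher, with a median of -0.05. Ndufaf5 was separate between genotypes, at 7.12 ± 0.63 and 5.92 ± 0.165 TPM, a log2 difference of -0.23 ± 0.10 (limma adjusted p 0.425). Ndufaf4 averaged 7.93 ± 0.698 and 8.42 ± 1.78 TPM, a log2 difference of 0.06 that turned to -0.03 without null replicate 2.

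Complex II, succinate dehydrogenase, is shared with the citric acid cycle and had a median log2 difference of -0.05. Sdha, the flavoprotein, averaged 110.5 ± 23.2 in the wild-type and 101 ± 21.5 TPM in the null mice, and Sdhb, the iron-sulphur subunit, 92.6 ± 5.43 and 90.2 ± 6.55 TPM. The membrane anchors Sdhc and Sdhd averaged 183 ± 13.05 and 180.0 ± 18.0, and 99.5 ± 9.37 and 94.6 ± 5.72 TPM. All 4 log2 differences, between -0.12 and -0.03, were small beside their 95% intervals, which for Sdha ran from -0.49 to 0.25. The median of -0.05 became 0.00 with median ratios and 0.04 after rescaling without haemoglobin.

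Complex III passes electrons from ubiquinol to cytochrome c. Of its 8 nuclear subunits 6 averaged lower and 2 higher in null mice, with a median of -0.13. After rescaling without haemoglobin 4 of 8 averaged lower, with a median of -0.04. Uqcrb, which contacts the ubiquinone site, was separate between genotypes, with 225 ± 11.8 and 201 ± 10.6 TPM and a log2 difference of -0.16 ± 0.07 (limma adjusted p 0.419), although it overlaps the gene Gm10767. Uqcrh, the acidic hinge protein, measured 442.5, 361, 372, 382 and 363 TPM in the wild-type and 306, 313, 335, 324 and 362 TPM in the null mice, a log2 difference of -0.23 ± 0.08. Uqcrq was at -0.20, and the abundant small subunits Uqcr10 and Uqcr11 at -0.19 and -0.09. Uqcrc1, a core protein, was at 0.05. Outside the rule, cytochrome c1 (Cyc1), the other haem subunit of the complex, was at 137 ± 6.19 and 134 ± 9.31 TPM, a log2 difference of -0.04 ± 0.08. Cytochrome c (Cycs), the carrier to complex IV, was at 85.7 ± 6.92 and 78.3 ± 2.81 TPM, a log2 difference of -0.12 ± 0.08.

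Complex IV reduces oxygen, and several of its nuclear subunits exist as paired isoforms with their own tissues or conditions. Cox6b1, the common form of a subunit on the cytochrome c side, measured 535, 426, 423, 424 and 413 TPM in the wild-type and 334, 389, 345, 384 and 348 TPM in the null mice. Its log2 difference was -0.30 ± 0.09 (limma adjusted p 0.312, exact permutation p 0.00794), and it was -0.23 without wild-type replicate 1 and -0.19 with protein-coding transcripts only. Cox6b2, the isoform known from testis, measured 53.9, 32.1, 51.6, 39.8 and 48.8 TPM in the wild-type and 61.1, 63.3, 60.01, 54.1 and 48.7 TPM in the null mice. Only null replicate 5 lay below any wild-type mouse, and the log2 difference was 0.36 ± 0.14 (limma adjusted p 0.379). It was the 1 nuclear subunit higher at an unadjusted p under 0.05, a count that became 0 without wild-type replicate 2 or 4 or null replicate 1, 2 or 3.

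As a share of the pair, Cox6b2 made up 9.15%, 7.01%, 10.9%, 8.60% and 10.6% in the wild-type and 15.5%, 14.0%, 14.8%, 12.4% and 12.3% in null mice. All 5 null mice lay above all 5 wild-type mice, with means of 9.24% ± 1.57 and 13.8% ± 1.43. A share within a library does not move with scaling by a single factor, so that the rescaling without haemoglobin leaves it as it is. It was picked for its values and is given with no p-value.

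Cox4i2, an isoform induced at low oxygen in some tissues, spread widely, at 34.3, 19.1, 8.27, 24.5 and 15.3 TPM in the wild-type and 7.38, 16.3, 15.5, 9.13 and 8.98 TPM in the null mice. Its log2 difference of -0.70 ± 0.33 (limma adjusted p 0.441) was the largest below 0 of all members, ran from -0.97 to -0.48 with single mice left out, and its groups overlapped. Ndufa4l2, a relative of Ndufa4 known as a target of hypoxia-inducible factor, measured 309, 126, 113, 175 and 132 TPM in the wild-type and 77.2, 103, 122, 113 and 85.2 TPM in the null mice. Wild-type replicate 1 stood well above the rest, and the log2 difference of -0.69 ± 0.25 (limma adjusted p 0.342) was -0.45 without it. Ndufa4l2 overlaps Shmt2 on the other strand and is uncertain for that reason. Ndufa4 itself, now counted as a subunit of complex IV, averaged 386 ± 21.8 and 353 ± 21.9 TPM.

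Cox6a2, the form of heart and skeletal muscle, was low, at 8.48, 6.44, 7.44, 4.75 and 8.56 TPM in the wild-type and 7.82, 14.6, 8.64, 7.92 and 7.08 TPM in the null mice. Null replicate 2 was the high one. Cox6a2 overlaps Itgad on the other strand and is uncertain for that reason. The summed skeletal muscle markers ran from 29.9985 to 36.9 TPM in the wild-type and from 31.1 to 91.1 TPM in the null mice, with 5 of 15 above the filter, 4 of these higher on average and Myh2 at 0, and their part in the Cox6a2 values was not tested. Without null replicate 2 the Cox6a2 log2 difference of 0.31 became 0.15. Cox7a1, another muscle form, averaged 2.25 ± 0.888 and 2.20 ± 1.75 TPM, while Cox6a1 and Cox7a2, the common forms, averaged 470.1 ± 44.1 and 467 ± 25.2, and 294 ± 26.4 and 261 ± 18.8 TPM.

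Cox7a2l, which helps to join complexes III and IV into supercomplexes, measured 250.2, 210.1, 216, 219.7 and 208 TPM in the wild-type and 179, 192, 192, 178 and 180.4 TPM in the null mice. The groups were separate, with a log2 difference of -0.26 ± 0.07 (limma adjusted p 0.308, exact permutation p 0.00794). It kept a negative difference under every scaling, between -0.26 and -0.17. Cox6c was also separate, at 393 ± 22.5 and 354 ± 12.7 TPM and a log2 difference of -0.15 ± 0.07, although it overlaps Vps13b. Cox8a and Cox4i1, with Cox6a1 the most abundant nuclear subunits of the complex, were at -0.16 and -0.10. Cox7b was at -0.08, with its close copy Cox7b2 at 0 in all 10 mice.

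**Figure D4:**
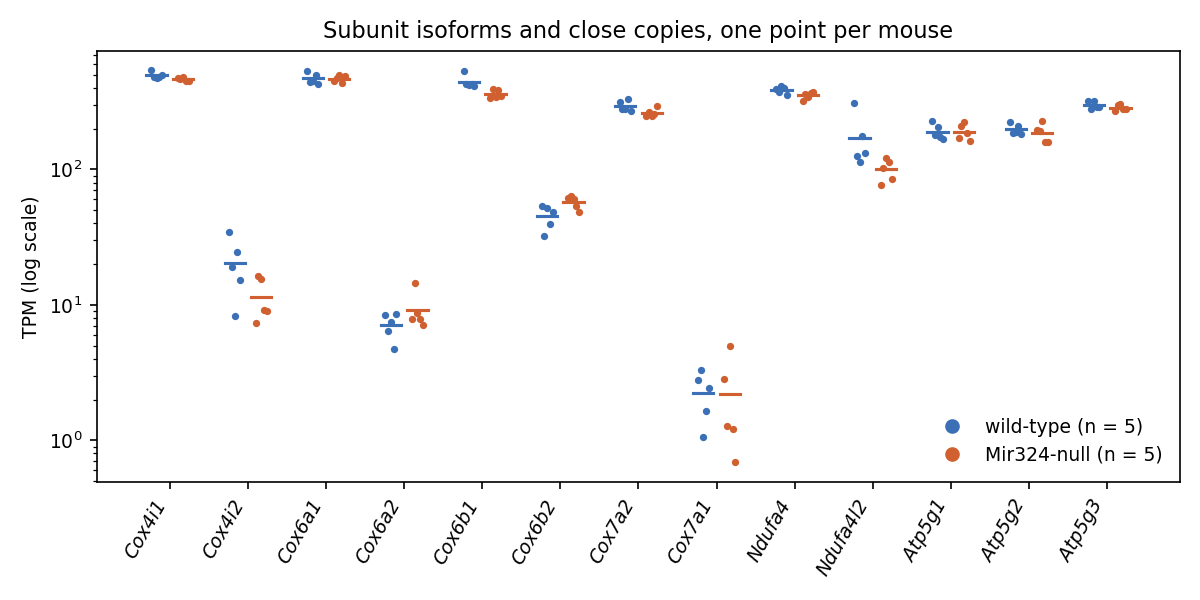
TPM (log scale) of paired subunit isoforms of complex IV, of Ndufa4 with Ndufa4l2 and of the 3 genes for subunit c of ATP synthase, with a point for each mouse and a bar at the mean of each genotype (n = 5 each). Cox6b1 lies lower and Cox6b2 higher in null mice, at means of 444 against 359.8 and 45.3 against 57.5 TPM.

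The nuclear subunits of ATP synthase were abundant and mostly close to level. All 16 averaged lower in null mice, by a median of -0.07 that became 0.02 after rescaling without haemoglobin, when 7 of 16 were lower. Atp5b measured 984, 699.7, 775, 675 and 708 TPM in the wild-type and 701, 787, 784, 749 and 724 TPM in the null mice, a log2 difference of -0.02 ± 0.10 that became 0.07 without wild-type replicate 1. Atp5h, subunit d of the peripheral stalk, was at -0.07. Atp5e, the small epsilon subunit of the rotor stalk, averaged 434.5 ± 50.2 and 368 ± 16.5 TPM, and Atp5j, coupling factor 6, averaged 341 ± 12.97 and 307 ± 13.2 TPM. These were the 2 of 16 at an unadjusted p under 0.05 (12.5%, beside 7.3% of all genes), with log2 differences of -0.23 and -0.15. The count became 0 with median ratios, with quantile normalization and after rescaling without haemoglobin, where 6.42%, 6.71% and 4.16% of all genes were lower. Atp5j overlaps Gabpa on the other strand. The 3 genes that encode the same mature subunit c kept their shares, with Atp5g1 at 27.6% ± 1.597 and 28.6% ± 1.55, Atp5g2 at 28.7% ± 1.596 and 28.1% ± 2.37 and Atp5g3 at 43.7% ± 1.497 and 43.3% ± 2.43 of their sum in the wild-type and null mice. Outside the rule, the inhibitor of the enzyme's reverse reaction, Atpif1, averaged 721 ± 66.2 and 827 ± 108 TPM, a log2 difference of 0.19 ± 0.10 (limma adjusted p 0.511).

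Differences varied with transcript length, among the members and elsewhere, though not steadily. The 17 nuclear subunits with a main transcript of up to 500 bases had a median of -0.16 and all 17 averaged lower, while the 38 up to 750 bases were at -0.11, the 8 up to 1000 bases at -0.15 and the 18 over 1000 bases at -0.06. Other protein-coding genes at 50 TPM or more had medians of -0.09, -0.11, -0.07 and 0.01 in the same length classes, over 165, 281, 238 and 1479 genes. Most nuclear subunits are short, with 17 of 81 at up to 500 bases and 38 more at up to 750, and the part of transcript length in their differences was not tested.

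Over all genes the choice of scaling moved the median difference by less than 0.1 on the log2 scale. For the mitochondrial messages it moved by more only with quantile normalization. That method gives every library the same set of values, and its effect on the most abundant genes was not tested separately. The median of the 13 was -0.28 on the TPM as deposited, -0.23 after scaling by median ratios, -0.19 after rescaling without haemoglobin and -0.09 after quantile normalization. The nuclear subunits were at -0.12, -0.07, -0.03 and -0.09 in the same order. All genes were at -0.05, 0.00, 0.04 and 0.00. The 1011 lower and 592 higher genes at an unadjusted p under 0.05 became 888 and 875 with median ratios, 929 and 884 with quantile normalization and 582 and 1217 of the same 13841 genes without haemoglobin.

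**Figure D5:**
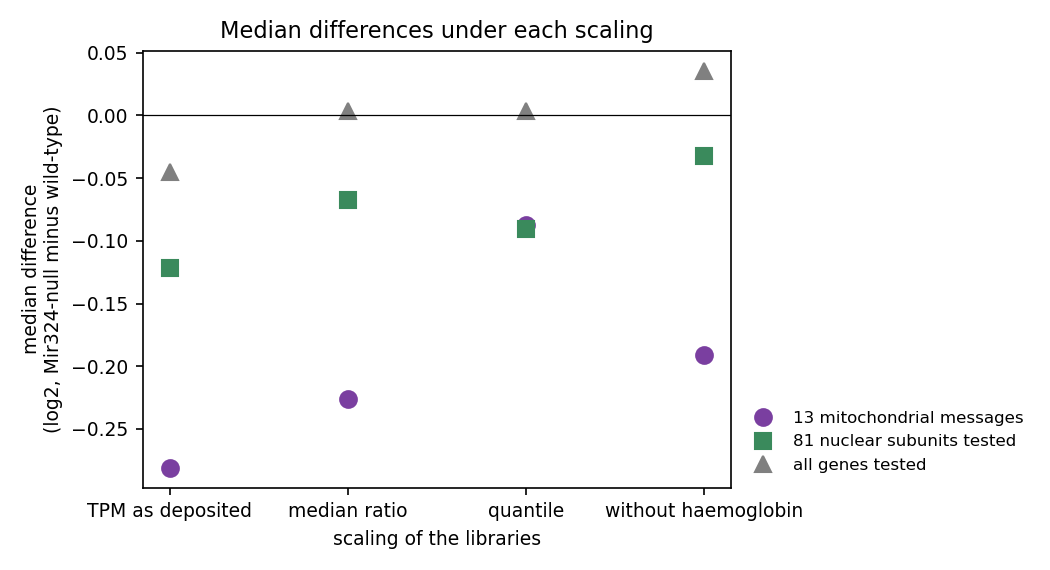
Median log2 difference (null minus wild-type) of the 13 mitochondrial messages (circles), the 81 nuclear subunits tested (squares) and all 13841 genes tested (triangles) under 4 scalings of the libraries. The mitochondrial median lies below the nuclear one in 3 of the 4 and meets it after quantile normalization, at -0.09 each.

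Promoters of nuclear subunits are known for sites of the factors NRF1, GABP (an ETS factor) and YY1, and their letters were searched on both strands in the 250 bases before and 50 after the start of 67 of the 84 subunits, those matched in RefSeq (GRCm38.p6). The NRF1 letters GCATGCGC were found in 10 of 67 (14.9%) and in 5.86% of the 9955 promoters of tested genes, and the full NRF1 palindrome, which contains them and has GC before them, in 5 of 67 (7.46%) and 2.28%. The YY1 letters AAGATGGC were found in 9 of 67 (13.4%) and 5.19%, and the ETS letters CCGGAAG in 16 of 67 (23.9%) and 19.8%. The TATA box letters TATAAA were found in 5 of 67 (7.46%) and 8.85%. Stretches from 3 promoters show these letters, with the match in capitals on the gene's strand: Atp5g2 (chr15:102671065-102671104, minus strand) for NRF1, Atp5j (chr16:84835016-84835079, minus strand) for YY1 and ETS, and Cox6b1 (chr7:30626121-30626157, minus strand), which was separate between genotypes, for ETS.
Atp5g2: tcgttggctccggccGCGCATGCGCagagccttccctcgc
Atp5j: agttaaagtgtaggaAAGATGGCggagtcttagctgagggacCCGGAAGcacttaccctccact
Cox6b1: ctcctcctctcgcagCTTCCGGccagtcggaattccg
Subunits with the ETS letters had a median log2 difference of -0.11 and those without them -0.11. For the YY1 letters the medians were -0.11 and -0.12, and for the NRF1 palindrome -0.07 and -0.12. A match is a description of the letters and not evidence that a factor binds there.

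Further lists of mitochondrial and metabolic genes had median log2 differences between -0.12 and -0.01 on the TPM as deposited, where 60% of all genes averaged lower. After rescaling without haemoglobin only the assembly factors kept a median below 0, at -0.04. In that setting 35 of 78 mitochondrial ribosomal proteins and 6 of 19 glycolytic genes averaged lower. The counts below are on the TPM as deposited unless another setting is named. Of 34 genes of mitochondrial transcription, RNA handling and translation, 17 averaged lower and 17 higher, with a median of -0.01. Tfam, which packages and transcribes mitochondrial DNA, averaged 30.7 ± 4.11 and 29.98 ± 3.26 TPM, and Lrpprc, which stabilises mitochondrial messages, 12.7 ± 1.56 and 13.9 ± 1.74 TPM. The list's smallest p-values were those of Fastkd2 and Fastkd3, RNA-binding proteins of the mitochondrion, at -0.44 and -0.36. Of 78 mitochondrial ribosomal proteins, 58 averaged lower with a median of -0.08, and 3 did so at an unadjusted p under 0.05 (3.85%, beside 7.3% of all genes). Mrps33 was separate between genotypes at 76.2 ± 6.69 and 64.4 ± 4.03 TPM, and Mrps6 was at -0.41.

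Assembly factors outside the rule had the lowest median of these lists, with 32 of 41 lower, a value of -0.12 and 6 lower at an unadjusted p under 0.05 (14.6%, beside 7.3% of all genes). The 6 became 4 with median ratios and 3 after rescaling without haemoglobin, and stayed 6 with quantile normalization. Of all genes, 6.42%, 4.16% and 6.71% were then lower. Lyrm7, an assembly factor that acts on the iron-sulphur protein of complex III, averaged 5.30 ± 1.16 and 3.07 ± 0.840 TPM, a log2 difference of -0.63 ± 0.17 (limma adjusted p 0.291). Uqcc3, needed for the assembly of the same complex, was separate at 34.0 ± 2.43 and 28.4 ± 0.911 TPM. Of 9 transcriptional regulators tested, 5 averaged lower and 4 higher. Esrra, a nuclear receptor that drives respiratory genes, averaged 11.7 ± 4.87 and 6.42 ± 5.31 TPM, a log2 difference of -0.94 ± 0.38 (limma adjusted p 0.38) with overlapping groups, and Yy1 was at 0.13. The coactivator of Esrra, Ppargc1a, was under the filter, at 0.164 ± 0.123 and 0.136 ± 0.190 TPM.

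Of 19 electron carriers and entry points, 12 averaged lower with a median of -0.03, and of 14 citric acid cycle genes 8 did so with a median of -0.03 and none at an unadjusted p under 0.05. In the former list Coq7, which hydroxylates the ring of ubiquinone, was separate at 20.5 ± 1.91 and 16.2 ± 2.18 TPM, and Coq4, another gene of ubiquinone synthesis, was at 0.39, a difference that turned to -0.32 when only protein-coding transcripts were summed. In the citric acid cycle Suclg1 and Sucla2, both of succinyl-CoA ligase, were at -0.19 and -0.15. Of 6 carriers and porins 5 averaged lower, with the ATP/ADP carrier Slc25a4 at -0.34 ± 0.15 and the porin Vdac1 at -0.04, which became 0.05 after rescaling without haemoglobin. Of 19 glycolytic genes 13 averaged lower with a median of -0.06, none of them at an unadjusted p under 0.05, and 3 were higher at that level (15.8%, beside 4.28% of all genes). Hk1, a hexokinase, averaged 69.7 ± 6.96 and 82.3 ± 3.94 TPM, a log2 difference of 0.24 ± 0.09 (limma adjusted p 0.342), and Pfkm, a phosphofructokinase, was at 0.28.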

How the data were processed

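RNA of 10 mouse knee cartilage samples was sequenced, 5 per genotype. The authors deposited 1 table of TPM values for 116912 Ensembl transcripts, in which every library sums to a fixed total. The submitters' processing notes name kallisto, DESeq2 and the build GRCh38, a human build although the samples are mouse. The transcript index, the tool versions and the use of strand are not given in the sources used here. TPM keeps no read counts, so depth is unknown and no count test was run. Between 55447 and 59493 transcripts per library were above 0.

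Transcripts were matched without version to GENCODE M21 (GRCm38), which left 1472 unmatched (0.275% to 0.356% of TPM), and summed per gene. The 13841 genes that averaged 1 TPM or more were fitted as log2(TPM + 1) with limma 3.58.1 (trended eBayes, R 4.3.3), two-sided, with Benjamini-Hochberg adjustment over all of them and no covariate. This scale understates changes of low genes. Exact permutation tests used all 252 splits of the mice and were not adjusted. Other steps ran in Python 3.11.15 (numpy 2.4.6, pandas 2.3.3, scipy 1.17.1), and the fit was tested on simulated data. Samples are separate mice, but no label gives litter or batch, so no fit with a batch term was made, and only the replicate number of the titles was tried as a block.

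The members and gene lists were chosen with earlier results of these data known. Genes named singly were the mitochondrial members, the 3 most abundant nuclear subunits of each complex, isoforms and close copies, all Sdh genes, the 5 smallest p-values in each direction, members whose genotypes did not overlap and the 2 smallest p-values of each further list. Others named were those at an unadjusted p under 0.05, those with a seed site and a few known regulators, chosen after their values were seen. Alternatives changed the scaling, pseudocount, filter, transcripts summed, trend, block or denominator, or left out 1 mouse.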

Additional observations from a re-analysis of the deposited data

Results flagged for a closer look

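Among 128 groups of 5 mice examined, 9 had a mouse whose gap to the nearest other exceeded 0.71 of the group's range, where chance flags about 1 in 20. In wild-type replicate 1 the highest values were Cox6b1 at 535 TPM, Cox7a2l at 250.2 TPM, Cox8a at 624 TPM, Ndufb7 at 217 TPM, Uqcrh at 442.5 TPM and the summed nuclear subunits of complex V at 0.59% of the library. Atp5h was highest in wild-type replicate 5 at 484 TPM, and mt-Nd4l in wild-type replicate 4 at 2696 TPM. Cox6a2 was highest in null replicate 2 at 14.6 TPM.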

How the results depend on the processing

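No member reached an adjusted p under 0.05 in limma with any of 20 settings (smallest 0.135, without wild-type replicate 3). All 13 mitochondrial messages averaged lower in null mice in all 20, and between 52 and 77 nuclear subunits did. With median ratio scaling, 2 mitochondrial and 5 nuclear members were lower at an unadjusted p under 0.05, and 0 and 0 did not overlap. In that setting 3 nuclear members were higher at that level (3.70%, beside 6.32% of all genes). With quantile normalization, 0 mitochondrial were lower and 3 nuclear higher at that level (3.70%, beside 6.39% of all genes). There 0 and 2 did not overlap, and the mitochondrial median was -0.087. Without haemoglobin, 1227 of 14216 genes then above the filter were higher and 591 lower, 2 mitochondrial and 5 nuclear members lower and 3 higher, 0 and 0 did not overlap, the nuclear median was -0.032 and the difference in nuclear percent -0.0422, or -0.0395 with protein-coding genes without haemoglobin as the denominator. No filter gave 5 mitochondrial members lower, where 5.39% of all genes were lower. No trend gave 8 nuclear members lower (9.88%, beside 7.41% of all genes). The cause was not tested. Coq4 turned to -0.32 with protein-coding transcripts only.

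With single mice left out, the unadjusted counts ran from 441 to 681 genes higher and 614 to 1354 lower, 5 to 11 mitochondrial and 7 to 18 nuclear members lower, 0 to 2 nuclear higher, and 0 to 1 genes at the adjusted threshold. Members without overlap ran from 4 to 6 (mitochondrial) and 6 to 11 (nuclear). The share of all genes lower without overlap ran from 1.24% to 3.51%, beside 1.06% with all mice. Medians ran from -0.32 to -0.21 (mitochondrial), -0.13 to -0.08 (nuclear) and -0.09 to -0.00081 (all genes). Differences ran from -1.15 to -0.766 for mitochondrial percent, -0.157 to -0.0856 for nuclear percent and -0.439 to -0.249 for their ratio.

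Same-numbered mice did not deviate together (correlations from -0.144 to 0.0564), which gives no sign of pairing by replicate number. Correlations over all genes also carry differences in cell mix between mice, so they cannot exclude pairing, and no label settles it. With the replicate block, 3 mitochondrial and 5 nuclear members were lower and 2 nuclear higher at an unadjusted p under 0.05, where 5.12% of all genes were lower and 3.32% higher. Of the 73 single genes and medians by complex examined, 56 kept their sign under every alternative run for them. The other 17 had small differences apart from Coq4, between -0.13 and 0.06, and changed sign in 41 of 1305 combinations of result and setting. Counted separately, 11 of the 1305 moved by more than the spread between mice, but only part of the 1305 were judged this way. Genes at an unadjusted p under 0.05 or without overlap were judged by sign and by the adjusted threshold. Of these only Coq4 changed sign, in 1 setting. Read depth is unknown from TPM, so its limit on low genes such as Cox7a1 cannot be given.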
